A study of Mus musculus with 9 samples.

Results

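The genes described here are 32 genes of the endoplasmic reticulum (ER) that fold secretory proteins, dispose of those that fail to fold and sense the load of unfolded protein. They were taken by gene symbol from a count table of ribosome footprints, which are the pieces of mRNA that a translating ribosome shields from RNase. All 32 symbols were found among 55359 genes, and all 32 were among the 14714 genes with enough counts to test. They fell into 4 roles, with 4 sensors (counting the transcription factor Xbp1), 12 chaperones, 6 disulfide isomerases and 10 degradation factors. The footprints came from cultured mouse preadipocytes, the precursors of fat cells, of the inguinal fat depot. Of the 3 groups, day 0 was not induced, and days 4 and 8 were reached under beige adipocyte differentiation, with 3 libraries in each group. Beige adipocytes differ from white ones in that they can turn fuel into heat. Induced cells received dexamethasone, 3-isobutyl-1-methylxanthine, indomethacin, insulin, triiodothyronine and rosiglitazone, and after 2 days the medium was changed for one that kept insulin, triiodothyronine and rosiglitazone. Day 0 cells thus differ from both later groups in the medium as well as in time. All lysates held cycloheximide, which holds ribosomes on the mRNA. The sources used here give no strain, sex or age and do not say where replicates came from. The p-values therefore reflect the spread among libraries alone, which may be technical.

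When unfolded protein builds up in the ER, the chaperone BiP leaves the membrane sensors IRE1, ATF6 and PERK. IRE1 then splices the mRNA of the transcription factor XBP1, and ATF6 travels to the Golgi, where it is cut to release a transcription factor. Both factors raise chaperones and the machinery that sends misfolded proteins back to the cytosol for degradation, which is called ER-associated degradation. Fat cells load the ER as they begin to secrete hormones such as adiponectin and to make lipid, while precursors secrete collagen and other matrix proteins.

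The libraries held 30823028 to 38994892 counts each. The 5 fat cell markers summed to 233 to 297 CPM, the count scaled to library size, at day 0, 29787 to 46105 CPM at day 4 and 46633 to 49888 CPM at day 8, so the labelled course was seen. The 5 precursor markers summed to 2397 to 2542, 800.5 to 1810 and 525.9 to 719 CPM over the same days, and the 3 beige markers to 2.10 to 2.47, 19.2 to 55.3 and 486 to 1093 CPM. The precursor list was mixed at day 4 against day 0, with 3 of 5 genes called higher and 1 lower (Ly6a 0.86 and Pdgfrb -2.21 on the log2 scale), although its sum was lower. Immune cell markers summed to between 19.7 and 33.7 CPM in all 9 libraries. The 4 endothelial markers summed to 18.4 to 27.0 CPM at day 0, 5.89 to 19.6 CPM at day 4 and 3.40 to 7.78 CPM at day 8. Of these 4, 3 were called lower at day 8 against day 0, with a median log2 fold change of -2.37. The culture is bulk material, so a smaller share of cells of a type and fewer footprints per cell cannot be told apart. Day 4 replicate 2 and day 8 replicate 3 stood apart from the other libraries of their days. Day 4 replicate 2 was the day 4 library nearest to the day 0 mean in 24 of the 32 genes and in 61.5% of all tested genes, and day 8 replicate 3 was so among day 8 libraries in 17 of 32 and 53.2%. Counts of called genes are therefore also given without both libraries. The part of changing cell makeup in the values below was not tested.

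Promoter elements of this response are shown first, because they mark which of the 32 genes carry the classic binding site. The ER stress response element (ERSE) is bound by ATF6 together with the factor NF-Y and reads CCAAT, 9 bases of any kind, then CCACG. ERSE-II reads ATTGG, 1 base of any kind, then CCACG, and the unfolded protein response element (UPRE) reads TGACGTGG. Both strands were searched in RefSeq promoter windows of build GRCm38.p6, from 250 bases before to 50 bases after the transcript start, which matched 27 of the 32 genes. Atf6, Hyou1, Sil1, Manf and Derl1 were not matched. ERSE was found in the windows of 9 of the 27 genes (33.3%), against 37 of 27025 genes in the whole table (0.137%) and 39 of 32851 windows (0.119%). Those 9 genes were Hspa5, Hsp90b1, Calr, Canx, Dnajc3, Creld2, Pdia6, Syvn1 and Derl3, and Hsp90b1 held 2 matches. ERSE was first described on promoters of chaperone genes of this kind, so its presence among them is a description and not independent evidence. ERSE-II was found in Herpud1 and Dnajb11 (7.41% of the 27, against 0.0444% of all genes and 0.0365% of windows). UPRE was found in none of the 27, against 0.714% of all genes and 0.676% of windows. No match says only that these letters are not in this window. The bare CCAAT box is part of ERSE and, on the other strand, of ERSE-II. It was found in 22 of 27 genes (81.5%), against 41.1% of all genes and 37.4% of all windows.

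The stretches below show the match of 4 genes whose footprints were higher at day 8 than at day 0, of Canx, whose footprints were lower, and of Herpud1, whose ERSE-II is the shorter form. Each is written 5′ to 3′ on the strand of the gene, with the element in capitals and 20 bases on either side. In Creld2 and Derl3 the element lies on the opposite strand, so the capitals open with CGTGG and close with ATTGG.
Hspa5, chr2:34772005-34772063, plus strand: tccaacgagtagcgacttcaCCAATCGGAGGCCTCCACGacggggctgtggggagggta
Derl3, chr10:75893222-75893280, plus strand: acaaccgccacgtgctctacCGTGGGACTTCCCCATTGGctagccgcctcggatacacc
Creld2, chr15:88819500-88819558, plus strand: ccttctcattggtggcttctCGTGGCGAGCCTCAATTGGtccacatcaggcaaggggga
Syvn1, chr19:6046512-6046570, plus strand: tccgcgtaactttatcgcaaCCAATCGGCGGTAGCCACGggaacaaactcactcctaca
Canx, chr11:50325780-50325838, minus strand: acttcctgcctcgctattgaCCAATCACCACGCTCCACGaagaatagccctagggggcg
Herpud1, chr8:94386357-94386407, plus strand: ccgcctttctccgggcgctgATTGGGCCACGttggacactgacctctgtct

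The element lay at 65 to 47 bases before the start in Hspa5, at 44 to 26 bases before it in Syvn1 and at 156 to 138 bases before it in Derl3. The start itself is that of the RefSeq transcript, and the counts were made on another build, GRCm39, so these positions locate the element relative to the gene and not to the footprints.

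Over the course of differentiation the 32 genes did not move as one group. By day 8 the sensors Ern1 and Atf6, the transcription factor Xbp1 and the chaperone Hspa5 had more footprints than at day 0. So did the Hspa5 partners Dnajb9, Sdf2l1 and Sil1, the ER stress protein Creld2, and 7 of 10 degradation factors. The other 3 degradation factors were lower. Among further Hspa5 partners grouped with the chaperones, Dnajb11 was lower, and Hyou1, Dnajc3 and Manf were not called. Of the 6 genes grouped as protein disulfide isomerases, 4 were lower and none was higher. All tested genes had 34.2% called higher and 33.5% lower in that comparison. Creld2, whose product also has such an activity, was grouped with the chaperones. At day 4 the order was different, with Ern1, Herpud1, Hyou1 and Manf lower than at day 0 and Dnajb9 and Derl1 already higher. Genes were called with edgeR's quasi-likelihood test at a Benjamini-Hochberg adjusted p under 0.05, over all 14714 tested genes, and normalised counts are CPM after scaling by the trimmed mean of M values. A log2 change in the text is the fitted log2 fold change.

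At day 4 against day 0, 5 of the 32 genes were called higher and 10 lower, and the median log2 fold change was -0.26. Among all tested genes 29.8% were called higher and 28.4% lower, with a median of -0.02. The members' share called higher was 15.6%, below that background, and their share called lower was 31.2%, near it. At day 8 against day 0, 15 were called higher and 10 lower with a median of 0.24, where the background was 34.2% higher and 33.5% lower with a median of -0.01. The members' shares were 46.9% and 31.2%, so their lower calls were close to the background share. At day 8 against day 4, 14 were called higher and 2 lower with a median of 0.27, where the background was 14.7% higher and 17.1% lower with a median of -0.02. The members' shares were 43.8% and 6.25%. The 3 comparisons share libraries, so each stands on its own values and none supports another.

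Without day 4 replicate 2 and day 8 replicate 3, 8 genes were called higher and 19 lower at day 4 against day 0. In that fit 5003 of all 15012 tested genes were called higher and 4998 lower in the same comparison. The same fit called 17 higher and 10 lower at day 8 against day 0, and 17 higher and 4 lower at day 8 against day 4. Of all 15012 tested genes it called 5348 higher and 5290 lower at day 8 against day 0. At day 8 against day 4 it called 2496 of them higher and 2985 lower. Most of the added day 4 calls came from leaving out day 4 replicate 2 alone, which called Atf6, Hsp90b1, Sdf2l1, Dnajb11, Dnajc3, Sil1, Calr, Canx, Pdia6 and Edem1 besides (log2 fold changes -0.52 to 0.31). At day 8 over day 4, Pdia4 was called without day 4 replicate 2 (0.38), Canx and Os9 without day 4 replicate 1 (-0.47 and -0.43), and Syvn1 and Os9 without day 8 replicate 3 (0.34 and -0.45). The day 4 counts also rested on how libraries were scaled. With library totals alone, or with upper quartile scaling, 2 genes were called higher and 18 lower at day 4 against day 0. Of all 14714 tested genes, library totals called 3722 higher and 5167 lower there, and upper quartile scaling called 3826 and 5026. The median over all genes moved to -0.17 with library totals and to -0.14 with upper quartile scaling in that comparison.

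**Figure D1:**
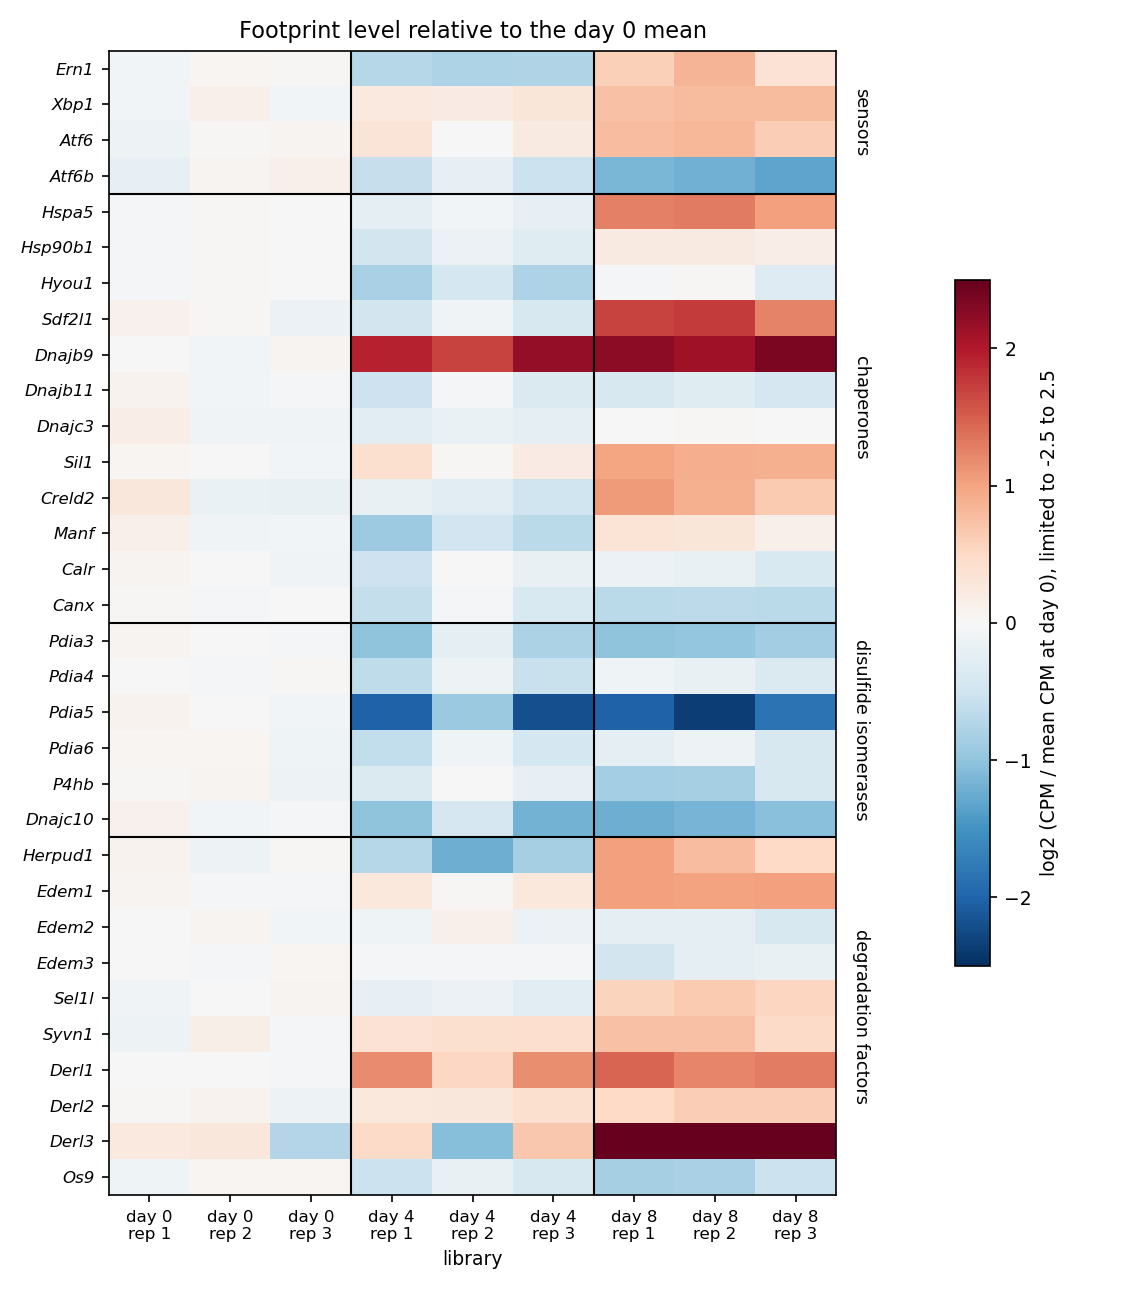
Footprint level of each of the 32 genes (rows, by role) in each of the 9 libraries (columns), as log2 of CPM over the gene's mean CPM at day 0, with colours limited to -2.5 and 2.5. Blue at day 4 in most chaperones and disulfide isomerases is paler in replicate 2 of that day, and red at day 8 is strongest in Derl3, Dnajb9, Sdf2l1, Derl1 and Hspa5.

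Sensors and their transcription factors changed in different directions. Ern1 (ENSMUSG00000020715) encodes IRE1 alpha, the kinase and RNase that splices Xbp1 mRNA. It had 26.1, 28.4 and 27.8 CPM at day 0, 16.7, 16.1 and 16.3 CPM at day 4, and 41.4, 49.2 and 35.2 CPM at day 8. Day 4 libraries lay below all others and day 8 libraries above all others, with no overlap between any groups. Ern1 was 1.68 times lower at day 4 than at day 0 (log2 change -0.74 ± 0.12 SE, adjusted p = 0.00059). It was 1.53-fold higher at day 8 than at day 0 (0.61 ± 0.12, adjusted p = 0.00138) and 2.56-fold higher at day 8 than at day 4 (1.36 ± 0.12, adjusted p = 0.000183).

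Xbp1 (ENSMUSG00000020484), the transcription factor made from the mRNA that IRE1 splices, had 65.0, 74.0 and 64.9 CPM at day 0. It had 80.7, 78.0 and 83.9 CPM at day 4 and 114, 117 and 117 CPM at day 8. The groups did not overlap, and each later day lay above the one before it. Xbp1 was 1.71-fold higher at day 8 than at day 0 (log2 change 0.77 ± 0.09 SE, adjusted p = 4.77e-05) and 1.43-fold higher at day 8 than at day 4 (0.52 ± 0.09, adjusted p = 0.00291). The step at day 4 over day 0 was smaller (0.25 ± 0.09, adjusted p = 0.0356), and 9 of 18 alternative fits did not call it. Leaving out day 0 replicate 1 or 3 or day 4 replicate 1 or 3 lost that call (0.22 to 0.26), and so did library totals (0.09). Counts per gene do not part spliced from unspliced Xbp1, so splicing was not measured here. In counts within a library, Xbp1 stood to Ern1 at a ratio of 2.33 to 2.61 at day 0, 4.82 to 5.15 at day 4 and 2.38 to 3.33 at day 8. This ratio is not corrected for gene length, so only its movement between libraries is of use.

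The paralogs Atf6 and Atf6b moved apart. Atf6 (ENSMUSG00000026663), the strong transcription factor of the pair, had 61.9, 69.1 and 70.9 CPM at day 0, 84.5, 67.8 and 78.8 CPM at day 4, and 115, 120 and 104 CPM at day 8. Day 8 libraries lay above all the others, while days 4 and 0 overlapped through day 4 replicate 2. Atf6 was 1.68-fold higher at day 8 than at day 0 (log2 change 0.75 ± 0.11 SE, adjusted p = 0.000235) and 1.47-fold higher at day 8 than at day 4 (0.55 ± 0.11, adjusted p = 0.00587). At day 4 over day 0 it was not called (0.19 ± 0.11, adjusted p = 0.159), and it was called without day 4 replicate 2 (0.28).

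Atf6b (ENSMUSG00000015461), a weaker activator of the same targets, had 59.6, 71.4 and 74.6 CPM at day 0, 45.8, 59.0 and 47.4 CPM at day 4, and 31.2, 29.8 and 27.5 CPM at day 8. The 3 days lay in falling order with no overlap. Atf6b was 2.32 times lower at day 8 than at day 0 (log2 change -1.22 ± 0.13 SE, adjusted p = 2.7e-05) and 1.72 times lower at day 8 than at day 4 (-0.78 ± 0.13, adjusted p = 0.00229). Its drop at day 4 against day 0 (-0.43 ± 0.13, adjusted p = 0.0148) was not called without day 0 replicate 2 or 3 or day 4 replicate 1 or 3 (-0.40 to -0.36). The count ratio of Atf6 to Atf6b within a library was 0.951 to 1.04 at day 0, 1.15 to 1.84 at day 4 and 3.69 to 4.02 at day 8. In day 4 replicate 2 it was 1.15, the value nearest to day 0. Together the 4 genes listed as sensors, Xbp1 among them, had 1 higher and 2 lower at day 4 against day 0. They had 3 higher and 1 lower both at day 8 against day 0 and at day 8 against day 4. All tested genes had 29.8% higher and 28.4% lower, 34.2% and 33.5%, and 14.7% and 17.1% in these comparisons, in that order. Eif2ak3, which encodes the sensor PERK, is not among the 4 and is given below.

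**Figure D2:**
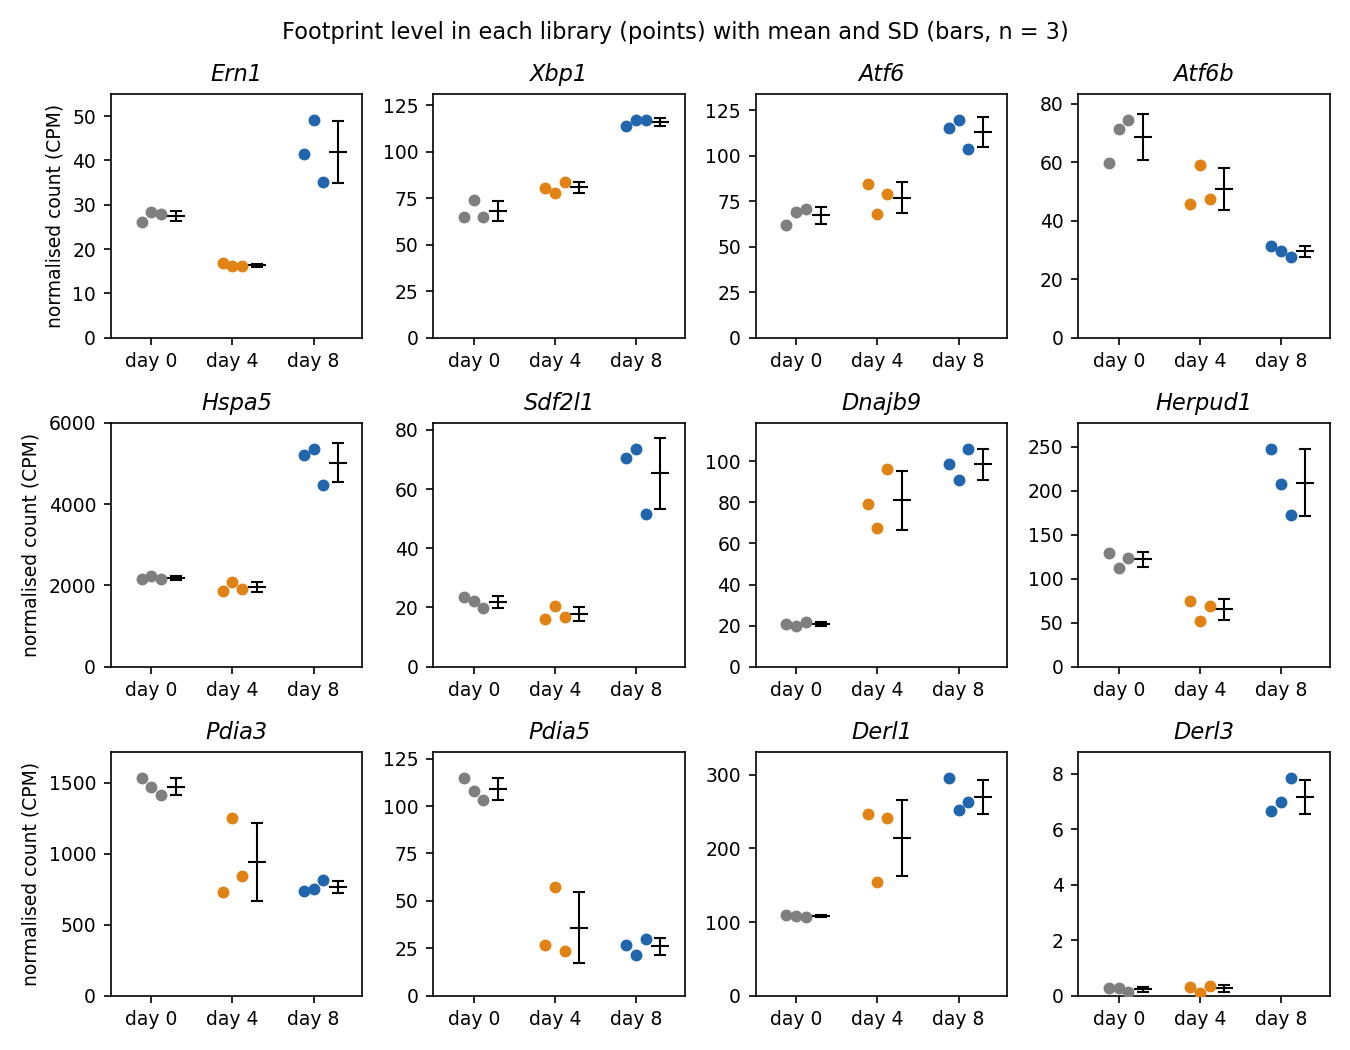
CPM of 12 genes in each library (points, replicates 1 to 3 from left to right within a day) with the mean and SD of 3 libraries beside them, on axes that start at 0. Ern1 and Herpud1 are lowest at day 4 and highest at day 8, Atf6 and Atf6b move in opposite directions, and Pdia3 and Pdia5 at day 4 are spread by replicate 2.

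Chaperones split into those that rose by day 8 and those that did not. Hspa5 (ENSMUSG00000026864) encodes BiP, the Hsp70 of the ER that holds unfolded proteins and keeps the sensors silent. It had 2150, 2243 and 2169 CPM at day 0, 1854, 2092 and 1907 CPM at day 4, and 5215, 5367 and 4476 CPM at day 8. Every day 8 library lay above all libraries of the other days, and day 4 libraries lay just under those of day 0. Hspa5 was 2.29-fold higher at day 8 than at day 0 (log2 change 1.20 ± 0.14 SE, adjusted p = 5.52e-05) and 2.57-fold higher at day 8 than at day 4 (1.36 ± 0.14, adjusted p = 0.000333). At day 4 over day 0 it was not called (-0.16 ± 0.14, adjusted p = 0.341).

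Hsp90b1 (ENSMUSG00000020048), the Hsp90 of the ER, behaved otherwise although its window holds 2 ERSE matches. Its levels were 1945, 2028 and 2021 CPM at day 0, 1446, 1801 and 1623 CPM at day 4, and 2322, 2338 and 2256 CPM at day 8. The groups did not overlap, but the steps were small. It was not called at day 8 over day 0 (log2 change 0.21 ± 0.13 SE, adjusted p = 0.191) or at day 4 over day 0 (-0.30 ± 0.13, adjusted p = 0.077). Hsp90b1 was 1.42-fold higher at day 8 than at day 4 (0.51 ± 0.13, adjusted p = 0.0181), a call that was lost without day 8 replicate 1 or replicate 2 (0.495 and 0.492). The count ratio of Hspa5 to Hsp90b1 within a library was 1.07 to 1.11 at day 0, 1.16 to 1.28 at day 4 and 1.98 to 2.30 at day 8. Hspa5 made up 15.1% to 15.8% of the counts of all 32 genes at day 0, 15.9% to 18.0% at day 4 and 30.3% to 33.8% at day 8.

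Genes that serve BiP each had their own course. Dnajb9 (ENSMUSG00000014905) encodes ERdj4, a J-domain partner that brings BiP to IRE1. It had 20.8, 20.0 and 21.9 CPM at day 0, 79.3, 67.5 and 96.2 CPM at day 4, and 98.6, 91.1 and 106 CPM at day 8. Both later days lay well above day 0 and overlapped each other. Dnajb9 was 3.87-fold higher at day 4 than at day 0 (log2 change 1.95 ± 0.14 SE, adjusted p = 2.36e-06) and 4.72-fold higher at day 8 than at day 0 (2.24 ± 0.14, adjusted p = 1.15e-06). Among the 12 chaperones it was the 1 gene called higher at day 4 against day 0. Its day 8 over day 4 value was 0.28 ± 0.13 (adjusted p = 0.122), and it was called without day 4 replicate 3 (0.42).

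Sdf2l1 (ENSMUSG00000022769), which sits in complexes with BiP and ERdj3 and keeps clients from clumping, had 23.7, 22.3 and 19.8 CPM at day 0, 16.0, 20.5 and 16.7 CPM at day 4, and 70.6, 73.6 and 51.7 CPM at day 8. Day 8 stood clear of both other days, and day 8 replicate 3 was the lowest of its group. Sdf2l1 was 2.98-fold higher at day 8 than at day 0 (log2 change 1.57 ± 0.16 SE, adjusted p = 1.81e-05) and 3.68-fold higher at day 8 than at day 4 (1.88 ± 0.16, adjusted p = 0.000145). Creld2 (ENSMUSG00000023272), a secreted ER stress protein with a disulfide isomerase activity, had 33.7, 24.6 and 24.3 CPM at day 0, 24.1, 22.7 and 19.4 CPM at day 4, and 57.6, 50.7 and 43.1 CPM at day 8. Its day 8 libraries again lay above all others. Creld2 was 1.83-fold higher at day 8 than at day 0 (0.87 ± 0.16, adjusted p = 0.000827) and 2.29-fold higher at day 8 than at day 4 (1.19 ± 0.16, adjusted p = 0.000971).

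The nucleotide exchange factors of BiP, which let it release its client, did not move together. Sil1 (ENSMUSG00000024357) had 75.3, 73.5 and 68.8 CPM at day 0, 95.3, 74.2 and 83.5 CPM at day 4, and 143, 135 and 135 CPM at day 8. It was 1.90-fold higher at day 8 than at day 0 (log2 change 0.93 ± 0.11 SE, adjusted p = 4.61e-05) and 1.63-fold higher at day 8 than at day 4 (0.71 ± 0.11, adjusted p = 0.0016). Hyou1 (ENSMUSG00000032115), the large Hsp70 relative GRP170, had 336, 349 and 341 CPM at day 0, 194, 252 and 201 CPM at day 4, and 329, 347 and 275 CPM at day 8. Its low point was day 4, where no library reached any of the other days, while days 8 and 0 overlapped. Hyou1 was 1.58 times lower at day 4 than at day 0 (-0.66 ± 0.13, adjusted p = 0.002) and was not called at day 8 over day 0 (-0.11 ± 0.13, adjusted p = 0.494). It was 1.47-fold higher at day 8 than at day 4 (0.56 ± 0.13, adjusted p = 0.0128), which was lost without day 8 replicate 1 or replicate 2 (0.52 and 0.48).

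Manf (ENSMUSG00000032575), a small secreted protein that binds BiP, was likewise lowest at day 4. It had 145, 125 and 126 CPM at day 0, 70.2, 94.2 and 82.8 CPM at day 4, and 168, 163 and 145 CPM at day 8. Manf was 1.60 times lower at day 4 than at day 0 (log2 change -0.68 ± 0.13 SE, adjusted p = 0.00129) and 1.93-fold higher at day 8 than at day 4 (0.95 ± 0.13, adjusted p = 0.000982). At day 8 over day 0 it was not called (0.26 ± 0.13, adjusted p = 0.0898), and it was called without day 4 replicate 2 (0.27), a library outside that comparison that enters through the shared spread.

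The lectin chaperones, which hold glycoproteins while they fold, were not called higher in any comparison. Canx (ENSMUSG00000020368), the membrane-bound calnexin, had 1068, 1008 and 1053 CPM at day 0, 692, 1011 and 802 CPM at day 4, and 657, 658 and 652 CPM at day 8. It was 1.59 times lower at day 8 than at day 0 (log2 change -0.67 ± 0.15 SE, adjusted p = 0.00244). Day 4 spanned the range between, with replicate 2 at the day 0 level. Calr (ENSMUSG00000003814), the soluble calreticulin, was not called in any comparison, with log2 fold changes of -0.22 at day 4 over day 0, -0.23 at day 8 over day 0 and -0.008436 at day 8 over day 4. The count table also lists a processed copy of Calr. How reads that match both were counted is not stated, so the copy's part in the Calr values was not tested.

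Of the J-domain partners left, Dnajc3 (ENSMUSG00000022136), a co-chaperone that also restrains PERK, was not called in any comparison, with log2 fold changes from -0.23 to 0.23. Dnajb11 (ENSMUSG00000004460), or ERdj3, which binds clients with BiP, was 1.30 times lower at day 8 than at day 0 (-0.37 ± 0.12 SE, adjusted p = 0.0222). It averaged 103 ± 4.41 CPM at day 8 and 134 ± 7.71 CPM at day 0 (SD, n = 3 each). That call was lost without day 0 replicate 1 or day 8 replicate 1 or 3 (-0.35 to -0.32). Over the 12 chaperones, 1 was called higher and 2 lower at day 4 against day 0, 5 higher and 2 lower at day 8 against day 0, and 7 higher and none lower at day 8 against day 4. The day 4 against day 0 shares, 8.33% and 16.7%, were below the 29.8% and 28.4% of all tested genes. At day 8 against day 0, 41.7% and 16.7% stood beside 34.2% and 33.5%. At day 8 against day 4, 58.3% and 0% stood beside 14.7% and 17.1%. Without the pair of libraries that stood apart, these counts were 2 higher and 8 lower, 7 higher and 2 lower, and 7 higher and 0 lower. Of all 15012 genes tested in that fit, 5003 were higher and 4998 lower, 5348 and 5290, and 2496 and 2985. The share of chaperones called lower at day 4 against day 0 was thus above that of all tested genes in that fit. The summed level of the 12 chaperones was 7756 to 7933 CPM at day 0, 5908 to 7426 CPM at day 4 and 9720 to 11027 CPM at day 8. The mean of this sum was 7869 CPM at day 0 and 10543 CPM at day 8, and the mean of Hspa5 was 2187 and 5019 CPM. Hspa5 alone rose by more than the sum did, so the summed level of the other chaperones was not higher at day 8 than at day 0.

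The 6 genes grouped as protein disulfide isomerases, which form and reshuffle the disulfide bonds of secreted proteins, were called lower or not at all. Their summed level was 4644 to 5055 CPM at day 0, 3132 to 4488 CPM at day 4 and 3020 to 3336 CPM at day 8. Pdia5 (ENSMUSG00000022844) had the largest fitted change of the 6 in both comparisons with day 0. It had 115, 108 and 103 CPM at day 0, 26.6, 57.6 and 23.6 CPM at day 4, and 26.6, 21.4 and 30.1 CPM at day 8. Both later days lay below day 0, and day 4 replicate 2 stood above the rest of its group. Pdia5 was 3.03 times lower at day 4 than at day 0 (log2 change -1.60 ± 0.30 SE, adjusted p = 0.0012) and 4.18 times lower at day 8 than at day 0 (-2.06 ± 0.30, adjusted p = 0.000197).

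Pdia3 (ENSMUSG00000027248), or ERp57, which works on glycoproteins held by calnexin and calreticulin, had 1536, 1469 and 1415 CPM at day 0, 731, 1249 and 846 CPM at day 4, and 734, 755 and 812 CPM at day 8. It was 1.92 times lower at day 8 than at day 0 (log2 change -0.94 ± 0.19 SE, adjusted p = 0.00142). At day 4 against day 0 it was 1.56 times lower (-0.64 ± 0.19, adjusted p = 0.0141), a call that was lost without day 4 replicate 3 (-0.57). Dnajc10 (ENSMUSG00000027006), or ERdj5, a reductase that opens disulfides before degradation, had 120, 105 and 107 CPM at day 0, 55.0, 82.7 and 48.9 CPM at day 4, and 47.5, 49.5 and 53.9 CPM at day 8. The later days again lay wholly below day 0. Dnajc10 was 1.78 times lower at day 4 than at day 0 (-0.83 ± 0.18, adjusted p = 0.00264) and 2.20 times lower at day 8 than at day 0 (-1.14 ± 0.18, adjusted p = 0.000301).

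P4hb (ENSMUSG00000025130) encodes the founding member of the family, which is also a subunit of collagen prolyl 4-hydroxylase and of the triglyceride transfer protein. It had 1964, 2009 and 1762 CPM at day 0, 1483, 1908 and 1652 CPM at day 4, and 1065, 1077 and 1445 CPM at day 8. Day 8 lay below both other days, with replicate 3 closest to them. P4hb was 1.60 times lower at day 8 than at day 0 (log2 change -0.68 ± 0.17 SE, adjusted p = 0.00482). Its day 8 over day 4 call (-0.49 ± 0.17, adjusted p = 0.0478) was lost in 11 of 18 alternatives, among them the fits without each day 0 library and without day 4 replicate 2 or 3 or day 8 replicate 1 or 2 (-0.51 to -0.39).

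Pdia4 (ENSMUSG00000025823) and Pdia6 (ENSMUSG00000020571), which join BiP in a large folding complex, were not called at day 8 over day 0 (log2 change -0.21 ± 0.15 and -0.25 ± 0.15 SE, adjusted p = 0.224 and 0.161). Pdia4 averaged 463 ± 91.6 CPM at day 4 and 621 ± 13.3 CPM at day 0 (SD, n = 3 each; log2 change -0.42 ± 0.15 SE, adjusted p = 0.0325). That call was lost in the fits without any 1 day 0 library, day 4 replicate 1 or 3, or day 8 replicate 1 or 2 (-0.44 to -0.32). Pdia6 was not called in any comparison (-0.37 ± 0.15, adjusted p = 0.0546 at day 4 over day 0), and was called lower at day 4 against day 0 without day 4 replicate 2 (-0.52). Over the 6 isomerases, 4 were called lower and 0 higher at day 4 against day 0 and at day 8 against day 0, and 1 lower and 0 higher at day 8 against day 4. Without day 4 replicate 2 and day 8 replicate 3 these counts were 6 lower, 4 lower, and 1 lower with 2 higher. All 15012 genes tested in that fit had 4998 lower, 5290 lower, and 2985 lower with 2496 higher. In the main fit 66.7% of the isomerases were called lower at day 8 against day 0, set beside the background of 33.5%. At day 4 against day 0 the share was also 66.7%, beside 28.4%. At day 8 against day 4 it was 16.7%, near the 17.1% of all tested genes.

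**Figure D3:**
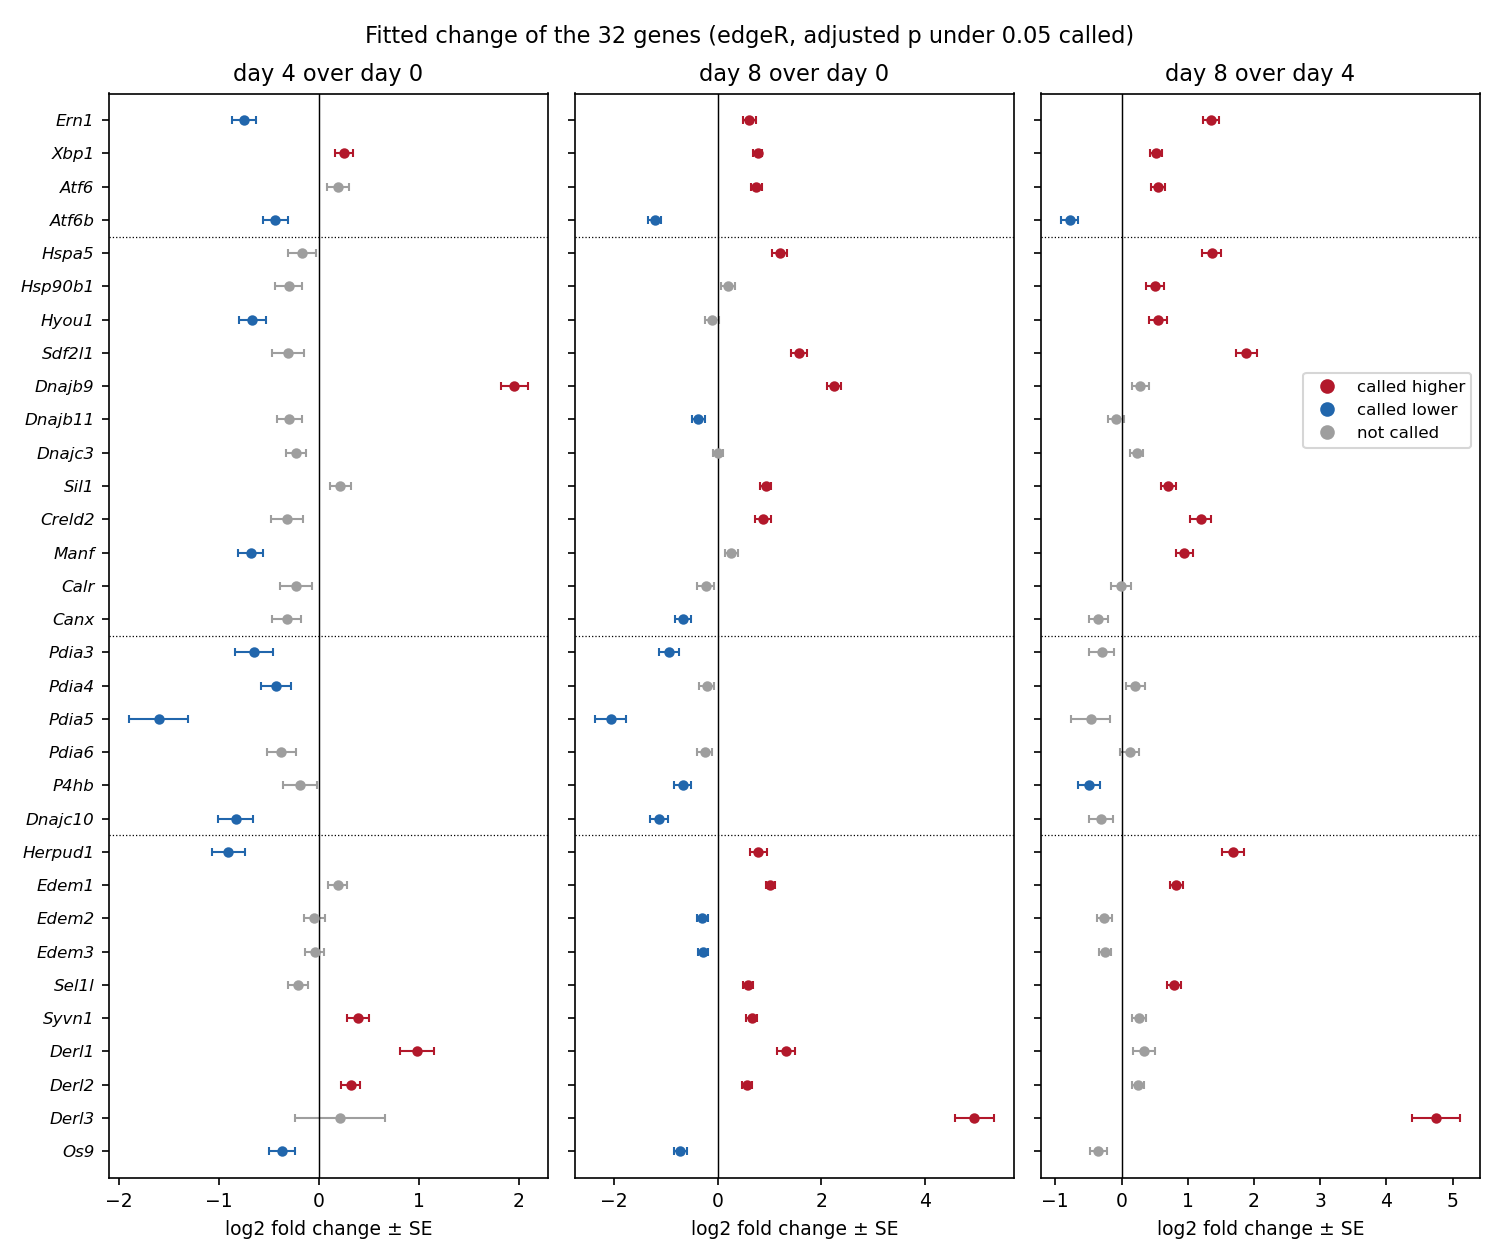
Fitted log2 fold change with its standard error for each of the 32 genes in the 3 comparisons, in the order sensors, chaperones, disulfide isomerases and degradation factors (dotted lines). Red points were called higher, blue points lower and grey points not called, and at day 8 over day 0 the 6 isomerases lie left of 0 while Derl3 lies at 4.95.

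Degradation factors were mostly higher at day 8. Derl3 (ENSMUSG00000009092), a derlin that helps pass misfolded proteins through the ER membrane, had few footprints before day 8. Its counts were 9, 9 and 5 at day 0, 11, 4 and 13 at day 4, and 239, 261 and 281 at day 8. In normalised counts these were 0.274, 0.279 and 0.138 CPM at day 0, 0.320, 0.110 and 0.367 CPM at day 4, and 6.67, 6.98 and 7.87 CPM at day 8. Derl3 was 31.0-fold higher at day 8 than at day 0 (log2 change 4.95 ± 0.37 SE, adjusted p = 3.34e-06) and 26.8-fold higher at day 8 than at day 4 (4.74 ± 0.36, adjusted p = 0.000106), the largest change among the 32 genes in both. With 23 counts in all at day 0 and 28 at day 4, the size of these folds is loosely known.

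Derl1 and Derl2 were called higher already at day 4. Derl1 (ENSMUSG00000022365) had 110, 109 and 106 CPM at day 0, 247, 154 and 241 CPM at day 4, and 296, 252 and 264 CPM at day 8. Both later days lay above day 0, with day 4 replicate 2 the lowest of them. Derl1 was 1.98-fold higher at day 4 than at day 0 (log2 change 0.98 ± 0.17 SE, adjusted p = 0.000732) and 2.5-fold higher at day 8 than at day 0 (1.32 ± 0.17, adjusted p = 8.74e-05). Derl2 (ENSMUSG00000018442) had 44.1, 46.0 and 39.3 CPM at day 0, 51.8, 52.7 and 57.1 CPM at day 4, and 60.8, 65.7 and 65.8 CPM at day 8. It was 1.49-fold higher at day 8 than at day 0 (0.57 ± 0.09, adjusted p = 0.000436). At day 4 over day 0 its value was 0.32 ± 0.09 (adjusted p = 0.0151), which was not called without day 0 replicate 3 or day 4 replicate 3 (0.26 and 0.28), nor with library totals (0.16).

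The ubiquitin ligase of the pathway is HRD1, made from Syvn1, held in place by SEL1L and assembled with the help of HERP, made from Herpud1. Syvn1 (ENSMUSG00000024807) had 56.6, 68.0 and 60.0 CPM at day 0, 79.3, 80.9 and 82.6 CPM at day 4, and 102, 103 and 85.8 CPM at day 8. It was 1.31-fold higher at day 4 than at day 0 (log2 change 0.39 ± 0.11 SE, adjusted p = 0.00976) and 1.57-fold higher at day 8 than at day 0 (0.65 ± 0.11, adjusted p = 0.000402). The day 4 call was lost with library totals (0.24) and with upper quartile scaling (0.27). Sel1l (ENSMUSG00000020964) had 273, 290 and 304 CPM at day 0, 250, 261 and 242 CPM at day 4, and 428, 457 and 419 CPM at day 8. Every day 8 library lay above all others, and at day 4 over day 0 it was not called (-0.20 ± 0.10, adjusted p = 0.106). Sel1l was 1.5-fold higher at day 8 than at day 0 (0.59 ± 0.10, adjusted p = 0.000502) and 1.73-fold higher at day 8 than at day 4 (0.79 ± 0.10, adjusted p = 0.00071).

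Herpud1 (ENSMUSG00000031770), like Ern1, was lowest at day 4 and highest at day 8. It had 130, 112 and 124 CPM at day 0, 74.4, 52.1 and 68.9 CPM at day 4, and 248, 208 and 172 CPM at day 8. None of the groups overlapped, and day 4 replicate 2 was here the library farthest from day 0. Herpud1 was 1.87 times lower at day 4 than at day 0 (log2 change -0.90 ± 0.17 SE, adjusted p = 0.00109). It was 1.72-fold higher at day 8 than at day 0 (0.78 ± 0.17, adjusted p = 0.00199) and 3.21-fold higher at day 8 than at day 4 (1.68 ± 0.17, adjusted p = 0.000266).

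The 3 EDEM genes, which trim mannose from glycoproteins to mark them for degradation, did not share a direction. Edem1 (ENSMUSG00000030104) had 71.5, 66.3 and 66.7 CPM at day 0, 82.3, 69.4 and 81.7 CPM at day 4, and 139, 137 and 138 CPM at day 8. It was 2.03-fold higher at day 8 than at day 0 (log2 change 1.02 ± 0.10 SE, adjusted p = 1.3e-05) and 1.78-fold higher at day 8 than at day 4 (0.83 ± 0.10, adjusted p = 0.000474). Edem2 (ENSMUSG00000038312) and Edem3 (ENSMUSG00000043019) were called lower at day 8 than at day 0 by small amounts (-0.30 ± 0.11 and -0.29 ± 0.10, adjusted p = 0.0304 and 0.0214). Edem2 was not called without day 0 replicate 1 or 2 or any 1 day 8 library (-0.31 to -0.24). Edem3 was not called without day 0 replicate 1 or 3 or day 8 replicate 1 (-0.29 to -0.20).

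Os9 (ENSMUSG00000040462), a lectin that reads the trimmed glycans for HRD1, was lower. It had 258, 287 and 288 CPM at day 0, 190, 244 and 210 CPM at day 4, and 156, 159 and 190 CPM at day 8. Os9 was 1.65 times lower at day 8 than at day 0 (log2 change -0.72 ± 0.13 SE, adjusted p = 0.0007). Its day 4 over day 0 value of -0.37 ± 0.13 (adjusted p = 0.0315) was not called without day 0 replicate 2 or 3, day 4 replicate 1 or 3, or day 8 replicate 1 or 2 (-0.35 to -0.28). The count ratio of Derl1 to Os9 within a library was 0.369 to 0.426 at day 0, 0.632 to 1.30 at day 4 and 1.39 to 1.90 at day 8. Over the 10 degradation factors, 3 were called higher and 2 lower at day 4 against day 0, 7 higher and 3 lower at day 8 against day 0, and 4 higher and 0 lower at day 8 against day 4. The day 4 against day 0 shares, 30% and 20%, stood beside 29.8% and 28.4% of all tested genes. At day 8 against day 0, 70% and 30% stood beside 34.2% and 33.5%. At day 8 against day 4, 40% and 0% stood beside 14.7% and 17.1%. Without the pair of libraries these counts were 4 and 3, 7 and 3, and 5 and 2. All 15012 genes tested in that fit had 5003 and 4998, 5348 and 5290, and 2496 and 2985. The summed level of the 10 degradation factors was 1025 to 1072 CPM at day 0, 998 to 1063 CPM at day 4 and 1413 to 1498 CPM at day 8.

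Set against the promoter elements, genes called higher were found both with and without ERSE, and 1 gene with ERSE was called lower. Of the 9 genes with ERSE, 4 were called higher at day 8 than at day 0, 1 lower and 4 not called. Of the 16 genes whose window held neither ERSE nor ERSE-II, 7 were called higher, 8 lower and 1 not called. All tested genes had 34.2% higher and 33.5% lower. The median log2 fold change was 0.21 with ERSE and -0.25 with neither. At day 8 against day 4, ERSE genes had 4 higher and 0 lower, and those with neither 5 and 2, beside 14.7% and 17.1%. At day 4 against day 0 these were 1 and 0, and 3 and 7, beside 29.8% and 28.4%. Of the ERSE-II pair, Herpud1 was called higher and Dnajb11 lower, and in Dnajb11 the match lies after the transcript start. Whether the element goes with the change was not tested.

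**Figure D4:**
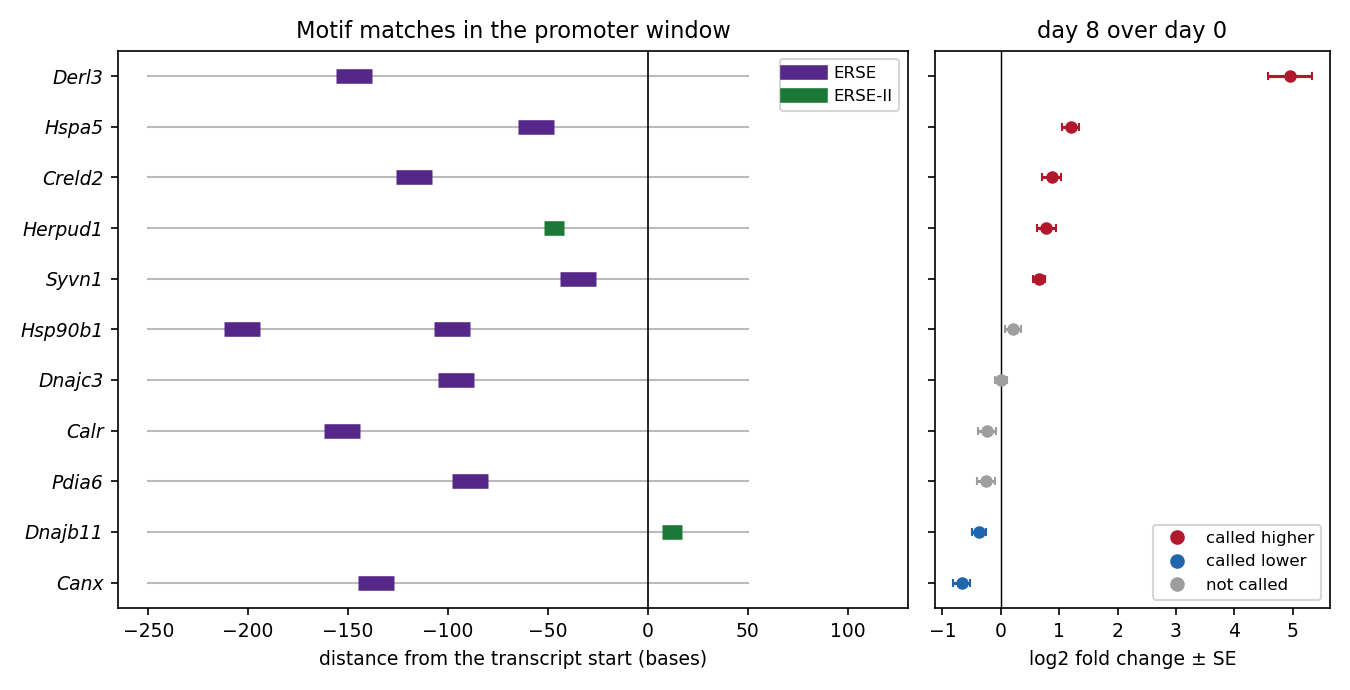
Left, positions of ERSE (purple) and ERSE-II (green) in the promoter windows of the 11 genes that hold one, as distance in bases from the RefSeq transcript start. Right, the log2 fold change of the same genes at day 8 over day 0 with its standard error, from Derl3 at 4.95 to Canx at -0.67, so that genes with the element stand both above and below 0.

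The third sensor, PERK, slows translation and acts through ATF4. Of 8 genes of that branch, 1 was called higher and 6 lower at day 4 against day 0, 4 higher and 1 lower at day 8 against day 0, and 7 higher and 0 lower at day 8 against day 4. The day 4 against day 0 shares, 12.5% and 75%, stood beside 29.8% and 28.4% of all tested genes. At day 8 against day 0, 50% and 12.5% stood beside 34.2% and 33.5%. At day 8 against day 4, 87.5% and 0% stood beside 14.7% and 17.1%. Trib3, a pseudokinase target of that branch, had 159, 180 and 146 CPM at day 0, 67.4, 18.5 and 51.8 CPM at day 4, and 301, 267 and 209 CPM at day 8. Trib3 was 3.52 times lower at day 4 than at day 0 (log2 change -1.82 ± 0.38 SE, adjusted p = 0.00224). Eif2ak3, which encodes PERK itself, was 1.48 times lower at day 8 than at day 0 (-0.57 ± 0.11, adjusted p = 0.000889), and Ppp1r15a, which reverses the PERK signal, was 3.27-fold higher (1.71 ± 0.21, adjusted p = 6.32e-05). Many genes of that branch also answer to amino acid supply, so they are not specific to the ER. Without day 4 replicate 2 and day 8 replicate 3, that branch gave 1 higher and 6 lower, 5 and 1, and 7 and 0. All 15012 genes tested in that fit gave 5003 and 4998, 5348 and 5290, and 2496 and 2985.

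Other ER genes gave a different balance from the 32. In 7 further lists with 85 genes, 19 were called higher (22.4%) and 39 lower (45.9%) at day 8 against day 0, beside the background of 34.2% and 33.5%. Of 17 genes for protein entry into the ER, 1 was called higher and 9 lower, with Ssr1 1.99 times lower (log2 change -0.99 ± 0.14 SE) and Sec61a1, the channel itself, 1.81 times lower (-0.86 ± 0.12). Of 10 genes for glycan trimming and glycoprotein sorting, 1 was higher and 6 lower, with the folding checkpoint enzymes Uggt1 and Uggt2 2.24 and 2.71 times lower (-1.17 ± 0.20 and -1.44 ± 0.21). Of 9 prolyl isomerases and the collagen chaperone, 1 was higher and 8 lower. Fkbp10, which serves procollagen, was 7.17 times lower at day 8 than at day 0 (-2.84 ± 0.28, adjusted p = 1.75e-05), with 61.7, 59.8 and 90.8 CPM at day 8 and 493, 552 and 477 CPM at day 0. Of the 5 precursor markers, 2 were called lower and 0 higher in the same comparison, and their part in these lower values was not tested. Without day 4 replicate 2 and day 8 replicate 3, entry genes gave 1 higher and 11 lower, glycan genes 1 and 8, and prolyl isomerases 1 and 8. All 15012 genes tested in that fit gave 5348 higher and 5290 lower at day 8 against day 0.

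Ero1a stood out among the genes of ER oxidation by the size of its rise. Of 15 redox genes, 6 were called higher (40%) and 5 lower (33.3%) at day 8 against day 0. These shares were near the 34.2% and 33.5% of all tested genes. Ero1a, the oxidase that recharges disulfide isomerases, had 178, 198 and 149 CPM at day 0, 844, 214 and 619 CPM at day 4, and 2701, 2566 and 2870 CPM at day 8. It was 15.5-fold higher at day 8 than at day 0 (log2 change 3.96 ± 0.43 SE, adjusted p = 3.01e-05), and day 4 replicate 2 lay near the day 0 libraries. The count ratio of Ero1a to P4hb within a library was 0.0844 to 0.0984 at day 0, 0.112 to 0.569 at day 4 and 1.99 to 2.54 at day 8. Of the 4 genes whose products pair with P4hb, 0 were higher and 2 lower at day 8 against day 0, with the collagen hydroxylase subunit P4ha3 6.71 times lower (-2.75 ± 0.52, adjusted p = 0.00101).

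Of 11 further stress transducers, 4 were called higher (36.4%) and 5 lower (45.5%) at day 8 against day 0. All tested genes had 34.2% and 33.5%, so the share called higher was near the background. Creb3l1, a membrane-bound relative of ATF6 that drives collagen genes, was 5.56 times lower at day 8 than at day 0 (log2 change -2.48 ± 0.21 SE, adjusted p = 7.48e-06). Tmbim6, an ER membrane protein that restrains IRE1, was 3.24-fold higher (1.70 ± 0.16, adjusted p = 1.11e-05), with 2214, 2258 and 1952 CPM at day 8 and 667, 729 and 588 CPM at day 0. Among 19 other degradation genes, 6 were higher and 4 lower at day 8 against day 0, and 9 higher and 3 lower at day 4 against day 0. The day 8 shares, 31.6% and 21.1%, were near or below the background. Those at day 4, 47.4% and 15.8%, stood beside 29.8% and 28.4% of all tested genes. Marchf6, a ubiquitin ligase of the ER membrane, was 2.04-fold higher at day 4 than at day 0 (1.03 ± 0.10, adjusted p = 1.55e-05) and 1.60-fold higher at day 8 than at day 0 (0.68 ± 0.10, adjusted p = 0.000154). No test of the difference between the 32 genes and these lists was made.

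**Figure D5:**
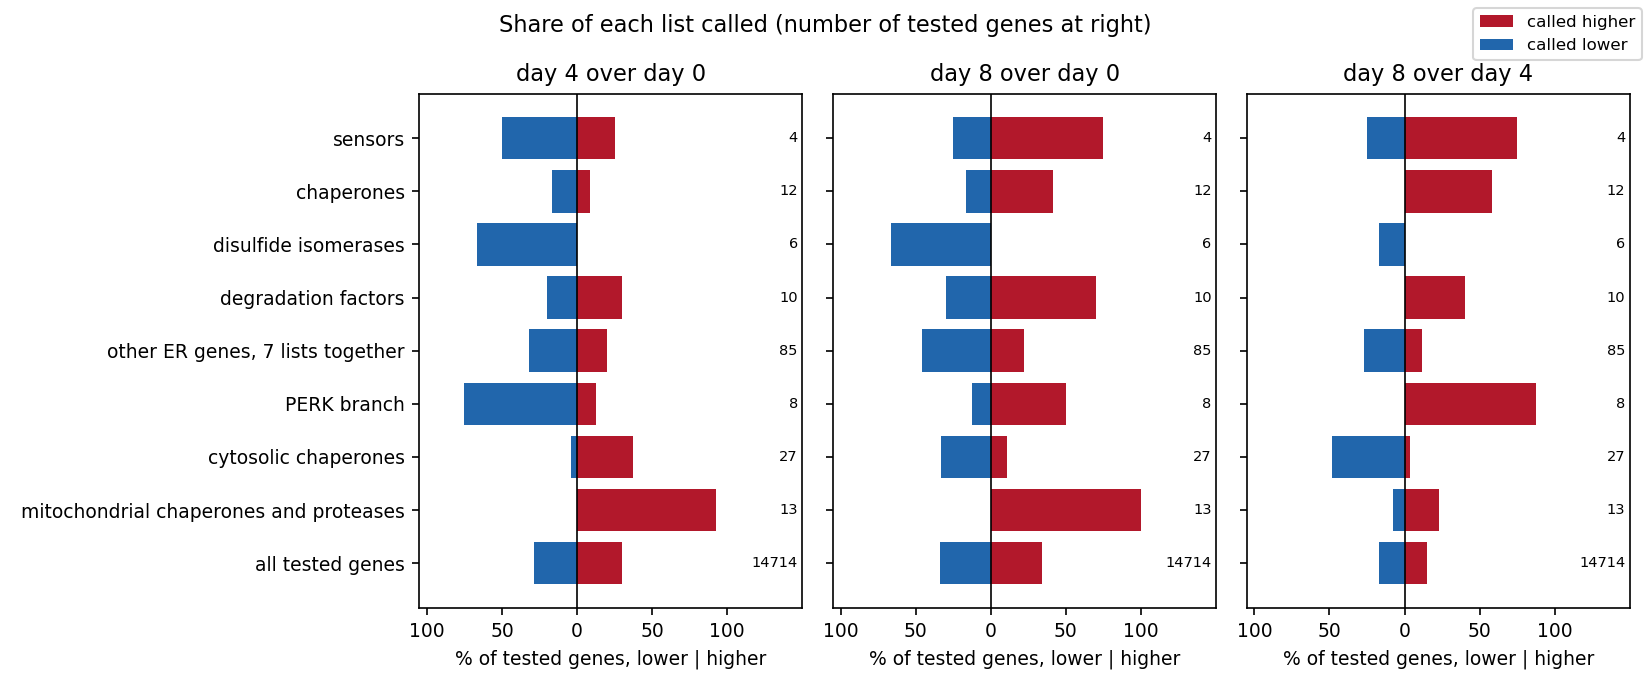
Percentage of tested genes called higher (red, right) and lower (blue, left) in the 4 roles of the 32 genes, in other lists and among all 14714 tested genes, with the number of tested genes at the right of each bar. At day 8 over day 0 the degradation factors reach 70% higher and the disulfide isomerases 66.7% lower, beside 34.2% higher and 33.5% lower over all tested genes.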

How the data were processed

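Ribosome footprints were measured in 9 libraries of cultured mouse preadipocytes, 3 each at days 0, 4 and 8, grouped by the labels. The authors deposited counts, raw and per Ensembl gene, in 1 table. Per the submitters' processing notes, cutadapt, HISAT2, featureCounts and the build GRCm39 were used. Versions, strand setting, counted feature and treatment of multi-mapped reads are not stated there, and a strandless count would mix a gene with its antisense neighbours. Footprint counts combine mRNA amount with ribosomes per mRNA, and matched RNA levels were not analysed here.

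Genes were kept with filterByExpr (minimum count 10), scaled by TMM and fitted in edgeR 4.0.16 under R 4.3.3. Its quasi-likelihood test compared days from 1 fit of all 9 libraries, in which day was the sole factor. Calls are at a Benjamini-Hochberg adjusted p under 0.05 over 14714 genes. CPM uses TMM-scaled totals, and SE is derived from the quasi-likelihood F statistic. No library repeated another (chi-square per degree of freedom 15.7 to 255.8 within groups). Totals of 30823028 to 38994892 make counting error small except for Derl3.

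Alternatives were DESeq2 size factors, library totals, upper quartile scaling, no filter, the groups compared alone, a replicate block, DESeq2 1.42.0, limma-voom 3.58.1, each library left out, and day 4 replicate 2 with day 8 replicate 3 left out. The 32 genes, the 15 other lists and the libraries left out together were chosen with earlier results of these data known. All 32 genes are described. From each other list, up to 2 called genes per direction and comparison with a mean of at least 10 CPM may be named. Sequences come from RefSeq promoter windows. Coding lengths were not used. Ratios, shares and sums that join genes are therefore not corrected for gene length, and only their movement between libraries is of use.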

Additional observations from a re-analysis of the deposited data

How the results depend on the processing

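Over 18 alternatives for each of the 32 genes in 3 comparisons, 1573 values kept their direction and their side of the threshold, 65 kept the direction but were no longer called, 72 became called, and 18 changed sign. The cause of these moves was not tested. At day 4 over day 0 the main counts were 5 higher and 10 lower. Library totals and upper quartile scaling gave 2 higher and 18 lower, and the fit without day 4 replicate 2 and day 8 replicate 3 gave 8 and 19. Over all tested genes these fits gave, in that order, 3722 and 5167, 3826 and 5026, and 5003 and 4998. Leaving out 1 library at a time gave 3 to 8 of the 32 genes higher and 6 to 17 lower. The 17 lower came when day 4 replicate 2 was left out, where 4773 of all 15075 tested genes were lower. At day 8 over day 4 the main count was 2 lower. It became 1 with library totals, upper quartile scaling, only the compared groups in the fit or the replicate block. It became 5 with DESeq2 and 4 without both libraries. Of all tested genes, 2517 were lower in the main fit, 2904 with DESeq2 and 2985 without both libraries. Library totals gave 1695 lower, upper quartile scaling 2395, only the compared groups 1666 and the replicate block 2153. Leaving out 1 library at a time gave 1 to 4 of the 32 genes lower. At day 8 over day 0 the totals over the 32 genes stayed within 1.5 times under each alternative. By role, degradation factors called lower were 1 in place of 3 with no filter and without day 0 replicate 1 or day 8 replicate 1, and chaperones called lower were 1 in place of 2 without day 0 replicate 1 or day 8 replicate 1 or 3.

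All 18 changes of sign were in values that were not called. Edem2 at day 4 over day 0 ran from -0.13 without day 4 replicate 2 to 0.015 without day 4 replicate 3. Derl3 at day 4 over day 0 was -0.062 without day 0 replicate 3 and -0.092 without day 4 replicate 3, and reached 0.59 without day 4 replicate 2 and day 8 replicate 3. Dnajc3 at day 8 over day 0 was -0.009136 with library totals and -0.10 with upper quartile scaling, and ran from -0.041 to 0.098 as single libraries were left out. Dnajb11 at day 8 over day 4 was 0.057 with library totals and 0.083 without both libraries, and ran from -0.18 to 0.058. Calr at day 8 over day 4 was 0.13 with library totals, 0.011 with upper quartile scaling, 0.003526 with limma-voom and 0.18 without both libraries, and ran from -0.13 to 0.11. Pdia5 at day 8 over day 4 ran from -0.70 without day 4 replicate 3 to 0.049 without day 4 replicate 2. Library totals moved the share of called genes that were higher at day 8 over day 4 to 65.9%, against 46.2% with TMM, and shifted the median of all genes to 0.12.

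Same-numbered libraries of different days correlated at -0.201 to 0.188 over 9 pairs, 2 of them over 0.1, so the numbers were not taken to pair libraries. With the replicate block, 4 genes were higher and 12 lower at day 4 over day 0, 15 and 10 at day 8 over day 0, and 14 and 1 at day 8 over day 4. Derl3 is the gene that depth limits, with 23 counts at day 0.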

Other observations

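Chaperones outside the ER were counted in the same way, with no test of their difference from those of the ER. Of 13 mitochondrial chaperones and proteases, 12 were called higher and 0 lower at day 4 against day 0, and 13 higher at day 8 against day 0. Grpel1, which lets mitochondrial Hsp70 release its client, was 5.84-fold higher at day 4 than at day 0 (log2 change 2.54 ± 0.16 SE, edgeR adjusted p = 1.5e-06). Clpx, the unfolding subunit of a matrix protease, was 6.27-fold higher at day 8 than at day 0 (2.65 ± 0.21, adjusted p = 4.84e-06). Of 27 cytosolic chaperones, 10 were called higher and 1 lower at day 4 against day 0, 3 higher and 9 lower at day 8 against day 0, and 1 higher and 13 lower at day 8 against day 4. As shares these were 37% higher and 3.7% lower at day 4 against day 0, beside 29.8% and 28.4% of all tested genes. At day 8 against day 0 they were 11.1% and 33.3%, beside 34.2% and 33.5%. At day 8 against day 4 they were 3.7% and 48.1%, beside 14.7% and 17.1%. The mitochondrial list had 92.3% called higher at day 4 against day 0, where all tested genes had 29.8%, and 100% at day 8 against day 0, where they had 34.2%. Hsp90ab1, the constitutive cytosolic Hsp90, was 2.5 times lower at day 8 than at day 0 (-1.32 ± 0.17, adjusted p = 7.9e-05). Without day 4 replicate 2 and day 8 replicate 3, the cytosolic counts were 11 higher and 6 lower at day 4 against day 0, 3 and 9 at day 8 against day 0, and 1 and 14 at day 8 against day 4. All 15012 genes tested in that fit gave 5003 and 4998, 5348 and 5290, and 2496 and 2985.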
